A study of Mus musculus with 15 samples.

Results

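The Kruppel-like factors (KLFs) and their Sp relatives Sp1 and Sp3 were followed by RNA-seq in mouse dental mesenchymal cells (mDMCs) brought into culture. The genes are Klf2, Klf3, Klf4, Klf6, Klf7, Klf9, Klf10, Klf13, Sp1 and Sp3, chosen by name, and all 10 had a row among the 12089 transcripts of the deposited expression table. All 10 passed the filter on low values and were tested. Of 16 other KLF and Sp genes looked for, 8 had a row, and the remaining 8 were not analysed here.

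The cells came from mandibular first molar germs of ICR mouse embryos at embryonic day 14.5, whose mesenchyme was freed from epithelium with dispase and dissociated with trypsin. The groups were freshly isolated mDMCs (0 h, 3 libraries), mDMCs grown in medium with fetal bovine serum for 12 h (2 libraries), 24 h, 36 h and 48 h (3 libraries each), and undissociated dental mesenchymal tissue (1 library). The labels name no transgene or drug in any group. The comparisons address how the transcriptome of mDMCs changes with time in culture. Expression is given as the deposited score, a whole number on a normalized scale with the same median (721) in all 15 libraries, and the number of reads behind a score is unknown. All libraries also shared their largest score (127101) and the score at 71.9% of ranks, so equal scores in different libraries can mean equal ranks. No source says which cultures or embryos the replicates came from, so p-values measure the spread between these libraries, which may be technical.

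KLF and Sp proteins bind DNA through closely related zinc fingers at their carboxyl end, and recognise GC-rich sequences known as GC boxes and CACCC boxes. Sp1 and Sp3 are present in nearly every cell type and act at many housekeeping promoters, whereas the KLFs divide into activators such as Klf2, Klf4, Klf6 and Klf7 and repressors such as Klf3, which recruits the corepressor CtBP, and Klf9, Klf10 and Klf13, which recruit Sin3A. Several KLF genes, among them Klf2, Klf4, Klf6 and Klf10, are known to be switched on within minutes to hours by serum, growth factors, flow or tissue injury.

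Scores of Klf2, Klf4, Klf6, Klf9, Klf10 and Klf13 spanned a wider fold range among the 0 h libraries than at any culture time, with 0 h replicate 1 lowest and 0 h replicate 3 highest. Replicate 1 also held most of the epithelial signal of the 0 h group: the summed score of 10 epithelial markers was 17589 in replicate 1, 2245 in replicate 2 and 2101 in replicate 3, and Krt5, a basal keratin, was 4573, 422 and 467. The sum in the tissue was 8628. Each change of the 10 genes from 0 h is therefore given with all libraries, and also without the library of 0 h that altered its call. At 36 h replicates 1 and 2 lay closer together than any other replicate pair, with a median absolute log2 difference of 0.0577 against 0.111 to 0.256 for the other pairs, and no call of the 10 genes changed when both were counted as 1 library.

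Promoter sequences of the 5 genes that changed at all 4 culture times are shown first, since GC and CACCC boxes are the sites that the family itself binds. The sequences end at the RefSeq start site (GRCm38.p6, the build also called mm10) or at the start of the listed transcript, whichever comes first, and begin 250 bases before the RefSeq start. For Klf3, Klf7 and Sp1 the last 133, 102 and 173 of those bases lie inside the transcript whose score is given, and are not printed. The sequences are written 5′ to 3′ on the strand of the gene. Capitals mark a GC box (GGGCGG, or CCGCCC on the other strand) or a CACCC box (CACCC, or GGGTG on the other strand). The stretches are Klf3 chr5:64803271-64803387 (plus strand), Klf7 chr1:64121492-64121639 (minus strand), Klf9 chr19:23140976-23141225 (plus strand), Sp1 chr15:102406066-102406142 (plus strand) and Sp3 chr2:72980447-72980696 (minus strand).
Klf3: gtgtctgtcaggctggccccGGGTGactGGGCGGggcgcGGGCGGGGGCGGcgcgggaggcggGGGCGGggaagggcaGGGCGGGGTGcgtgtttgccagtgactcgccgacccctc
Klf7: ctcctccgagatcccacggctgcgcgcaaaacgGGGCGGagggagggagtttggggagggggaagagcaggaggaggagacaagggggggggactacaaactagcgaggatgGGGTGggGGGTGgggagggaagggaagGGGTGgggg
Klf9: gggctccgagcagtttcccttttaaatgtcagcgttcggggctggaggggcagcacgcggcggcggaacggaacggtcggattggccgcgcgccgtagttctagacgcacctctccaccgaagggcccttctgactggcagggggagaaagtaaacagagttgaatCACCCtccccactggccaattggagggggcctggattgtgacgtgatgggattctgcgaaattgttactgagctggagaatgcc
Sp1: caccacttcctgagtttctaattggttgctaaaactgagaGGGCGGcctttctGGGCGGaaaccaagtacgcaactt
Sp3: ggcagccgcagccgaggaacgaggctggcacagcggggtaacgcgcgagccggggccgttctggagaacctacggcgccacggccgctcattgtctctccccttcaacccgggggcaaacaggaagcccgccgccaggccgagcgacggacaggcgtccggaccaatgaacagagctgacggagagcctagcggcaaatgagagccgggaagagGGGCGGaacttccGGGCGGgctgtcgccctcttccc

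Motifs were counted on both strands over the whole window of 300 bases, 250 before and 50 after the RefSeq start site, which takes in bases not printed here. Klf3 held 6 GC boxes and 5 CACCC boxes, of which 1 pair overlapped, and Klf7 held 1 GC box and 3 CACCC boxes. Klf9 held no GC box and 1 CACCC box, which overlapped a match to TGANTCA, a looser form of the AP-1 consensus; the middle base of this match is not one that the consensus allows. Sp1 held 4 GC boxes and 1 CACCC box, and Sp3 held 2 GC boxes and no CACCC box. These 5 genes, which rose or fell, thus ranged from 0 to 6 GC boxes.

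Of the other genes, Klf2 held 2 GC boxes and 1 CACCC box, Klf4 held 4 GC boxes, of which 1 pair overlapped, Klf6 held 1 GC box, and Klf13 held 3 GC boxes and 1 CACCC box that overlapped one of them. Klf10 had no entry. A GC box was present in 8 of 9 windows, against 35.7% of all 32851 windows in the table, and a CACCC box in 6 of 9, against 57.5%. The letters TGACG, the core of the site for CREB factors, were present in 7 of 9 against 20.8%, TGANTCA in 1 of 9 against 7.81%, CACGTG (an E-box) in 2 of 9, Klf4 and Klf6, against 7.15%, and a CArG box, the site of serum response factor, in 0 of 9 against 1.63%. The 9 windows were rich in G and C, at 58.3% to 76.7% against a median of 52.7% over all windows, and the motif letters are themselves mostly G and C. A match describes the sequence and does not show that a factor binds there.

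**Figure D1:**
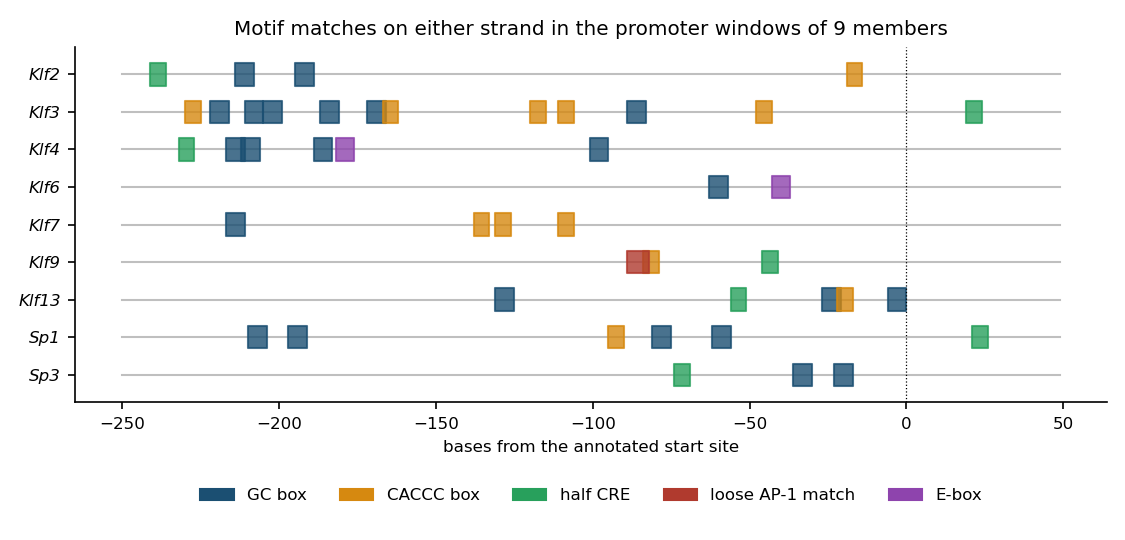
Positions of motif matches on either strand in the promoter windows of 9 genes, in bases from the annotated start site (dotted line at 0), 1 line per gene and 1 colour per motif (the green blocks are TGACG). Klf3 carries 6 GC boxes and 5 CACCC boxes, whereas Klf9 has no GC box and 1 CACCC box, which overlaps a match to the looser AP-1 letters.

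In culture, Klf3, Klf7 and Klf9 rose, Sp1 and Sp3 fell, and Klf2, Klf4, Klf6, Klf10 and Klf13 did not pass the test at any of the 4 culture times. These calls were the same at 12, 24, 36 and 48 h. From 0 h to 12 h, 3 of the 10 genes were called higher and 2 lower, at a Benjamini-Hochberg adjusted p below 0.05 over all 12079 transcripts tested by limma, beside 29.9% of all transcripts called higher and 28.3% lower. The counts were again 3 and 2 by 24 h, beside 35.0% and 31.8%. They were 3 and 2 by 36 h, beside 36.0% and 34.0%, and 3 and 2 by 48 h, beside 37.1% and 34.0%. For a list of 10 genes, counts of 3 and 2 lie near the shares over all transcripts at all 4 culture times. The counts also depended on the libraries of 0 h. Without 0 h replicate 3, 7 of the 10 genes were called higher and 1 lower at 12 h. Without 0 h replicate 1, 5 were called lower at 24 h and 5 at 48 h. The median log2 change of the 10 genes was 0.48 at 12 h and -0.06 at 48 h, beside 0.02 and 0.03 over all transcripts. These 4 comparisons share the same libraries of 0 h. In whole-culture RNA, fewer cells of a type and less RNA per cell cannot be told apart.

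**Figure D2:**
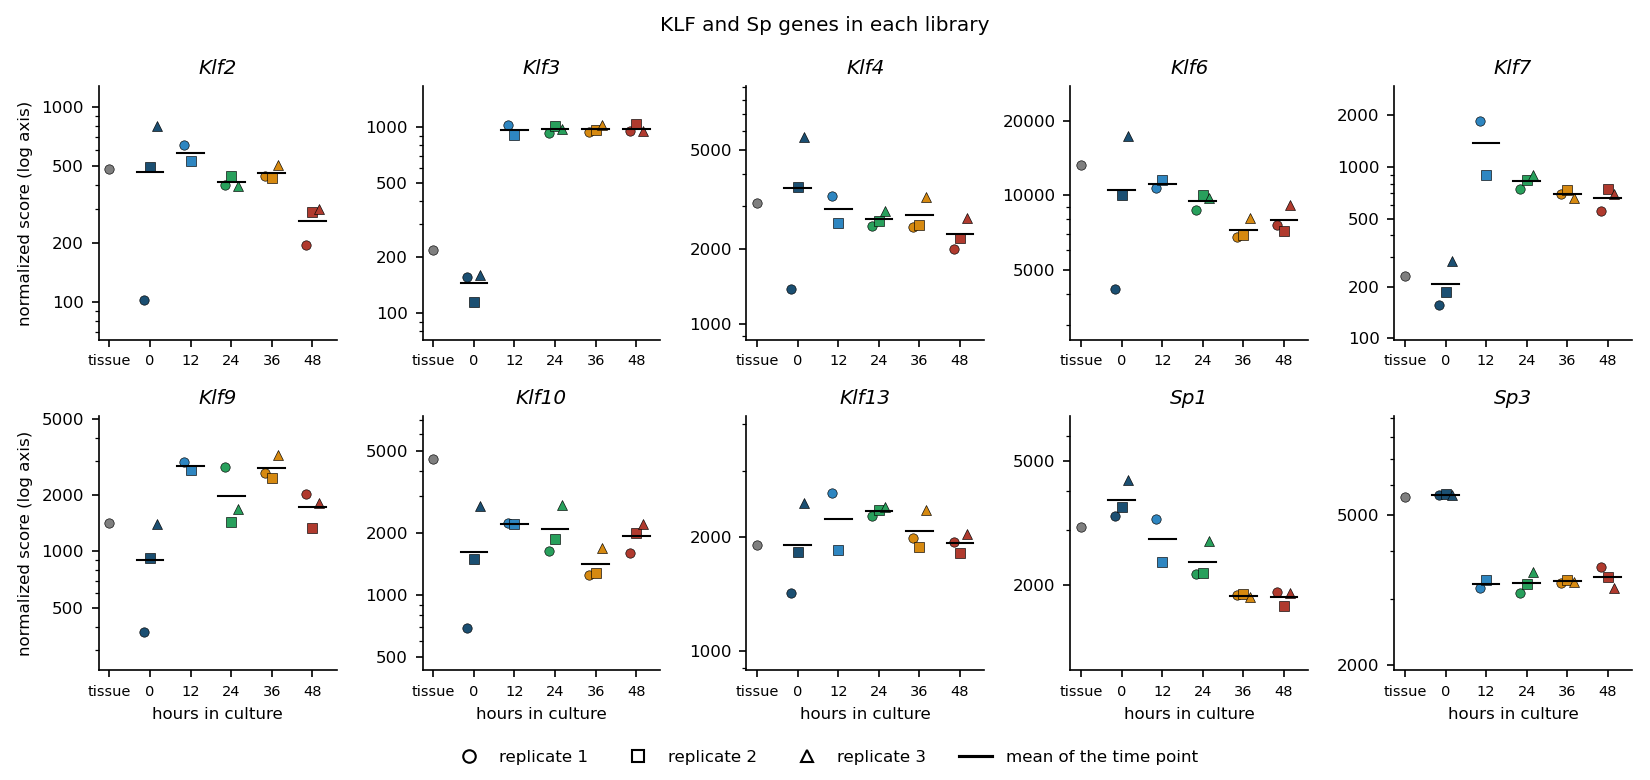
Expression score (log axis, with a range of its own for each gene) of the 10 genes in each of the 15 libraries, by hours in culture, with the tissue at the left. Points are libraries, symbols are replicate numbers and bars are means; Klf3 lies between 115 and 161 at 0 h and between 909 and 1038 in all 11 cultured libraries, and Sp3 falls from between 5620 and 5678 to between 3107 and 3643.

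Klf3, a repressor first described in red cell precursors, rose by more than any other of the 10 genes at 24, 36 and 48 h, and by about as much as Klf7 at 12 h. Its score was 157, 115 and 161 in replicates 1, 2 and 3 at 0 h, and 1027 and 909 at 12 h. It was 928, 1012 and 970 at 24 h, 940, 963 and 1029 at 36 h and finally 947, 1038 and 951 at 48 h. The cultured libraries lay far above those of 0 h, with no overlap, and from 12 h on the level was flat. The mean was 144 ± 25.5 (SD, n = 3) at 0 h and 968 ± 83.4 (n = 2) at 12 h, a log2 change on log2(score + 1) of 2.75 ± 0.13 (SE; 6.73-fold higher, adjusted p = 6.8e-09). At 48 h the mean was 979 ± 51.4 (n = 3) and the change from 0 h was 2.77 ± 0.12 (adjusted p = 7.5e-10). From 12 h to 48 h the difference was 0.02 ± 0.13 (adjusted p = 0.927). The changes from 0 h remained called in all 14 fits that left out 1 library, between 2.60 and 2.85. The row is the transcript ENSMUST00000165536, with 6 exons on chromosome 5 (64803388 to 64832901, plus strand, mm10).

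Klf7, an activator known from axon growth and sensory neurons, rose and then fell back in part. Its score was 157, 186 and 281 at 0 h, and 1853 and 898 at 12 h. It was 746, 840 and 903 at 24 h, 698, 735 and 657 at 36 h and finally 550, 739 and 699 at 48 h. All cultured libraries lay above all libraries of 0 h, and the pair at 12 h differed from each other by more than any later group. The log2 change from 0 h was 2.67 ± 0.28 at 12 h (6.37-fold higher, adjusted p = 4.2e-06; 3.19 without 12 h replicate 2, where Klf3 was at 2.84), 2.03 ± 0.25 at 24 h, 1.78 ± 0.25 at 36 h and 1.70 ± 0.25 at 48 h (3.25-fold, adjusted p = 4.2e-05). From 12 h to 48 h Klf7 fell by 0.97 on the log2 scale (SE 0.28, adjusted p = 0.0134). That fall rested on 12 h replicate 1: without it the difference was -0.45 (adjusted p = 0.232). The row is ENSMUST00000114086, with 4 exons on chromosome 1 (64029447 to 64121491, minus strand).

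Klf9, a repressor that glucocorticoid and thyroid hormones induce, rose with a wider spread. Its score was 377, 921 and 1401 at 0 h, and 2972 and 2705 at 12 h. It was 2790, 1427 and 1669 at 24 h, 2590, 2455 and 3243 at 36 h and finally 2023, 1337 and 1809 at 48 h. The libraries of 12, 24 and 36 h lay above those of 0 h, and the lowest library of 48 h lay below the highest of 0 h. The log2 change from 0 h was 1.85 ± 0.42 at 12 h (adjusted p = 0.00236), 1.26 ± 0.38 at 24 h (adjusted p = 0.0105), 1.80 ± 0.38 at 36 h (adjusted p = 9.2e-04) and 1.11 ± 0.38 at 48 h (2.16-fold, adjusted p = 0.0188). The call at 48 h was lost without 0 h replicate 1 (0.58, adjusted p = 0.0770), without 48 h replicate 1 (0.98, adjusted p = 0.0637) and without 48 h replicate 3 (1.06, adjusted p = 0.050), and the call at 24 h was lost without 24 h replicate 1 (0.97, adjusted p = 0.0513). The row is ENSMUST00000036884, with 2 exons on chromosome 19 (23141226 to 23168134, plus strand).

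Sp1 and Sp3, the general factors of the group, both fell, with different time courses. Sp1 scored 3342, 3554 and 4347 at 0 h, and 3267 and 2374 at 12 h. It scored 2178, 2185 and 2782 at 24 h, 1856, 1872 and 1834 at 36 h and finally 1903, 1711 and 1887 at 48 h. The cultured libraries lay below those of 0 h without overlap, and the libraries of 36 and 48 h lay below those of 24 h. The log2 change from 0 h was -0.42 ± 0.15 at 12 h (adjusted p = 0.0280), -0.65 ± 0.13 at 24 h (adjusted p = 7.6e-04), -1.01 ± 0.13 at 36 h and -1.02 ± 0.13 at 48 h (2.03-fold lower, adjusted p = 1.6e-05). The difference between 12 h and 48 h was itself called (-0.60 ± 0.15, adjusted p = 0.00627). It was no longer called without 12 h replicate 1 (-0.37, adjusted p = 0.106), and the fall at 12 h was no longer called without 12 h replicate 2 (-0.19, adjusted p = 0.348) or 0 h replicate 3 (-0.31, adjusted p = 0.0952). The calls at 24, 36 and 48 h held in all 14 fits that left out 1 library. The row for Sp1 is ENSMUST00000170884, on chromosome 15 (102406143 to 102408235, plus strand), which the annotation gives 3 exons and 222 bases, so which Sp1 transcripts the score covers is not given.

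Sp3 had the smallest standard errors of the 10 genes. It scored 5620, 5678 and 5620 at 0 h, and 3208 and 3367 at 12 h. It scored 3107, 3271 and 3520 at 24 h, 3304, 3366 and 3324 at 36 h and finally 3643, 3413 and 3208 at 48 h. The fall was complete by 12 h, and the cultured libraries overlapped each other from then on. The mean was 5639 ± 33.5 (SD, n = 3) at 0 h, 3288 ± 112 (n = 2) at 12 h and 3421 ± 218 (n = 3) at 48 h. The log2 change was -0.78 ± 0.08 at 12 h (1.72-fold lower, adjusted p = 2.9e-06) and -0.72 ± 0.07 at 48 h (adjusted p = 9.2e-07), and over all fits that left out 1 library the changes from 0 h lay between -0.82 and -0.68. The difference between 12 h and 48 h was 0.06 ± 0.08 (adjusted p = 0.581). The row is ENSMUST00000102689, with 7 exons on chromosome 2 (72936427 to 72980446, minus strand).

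**Figure D3:**
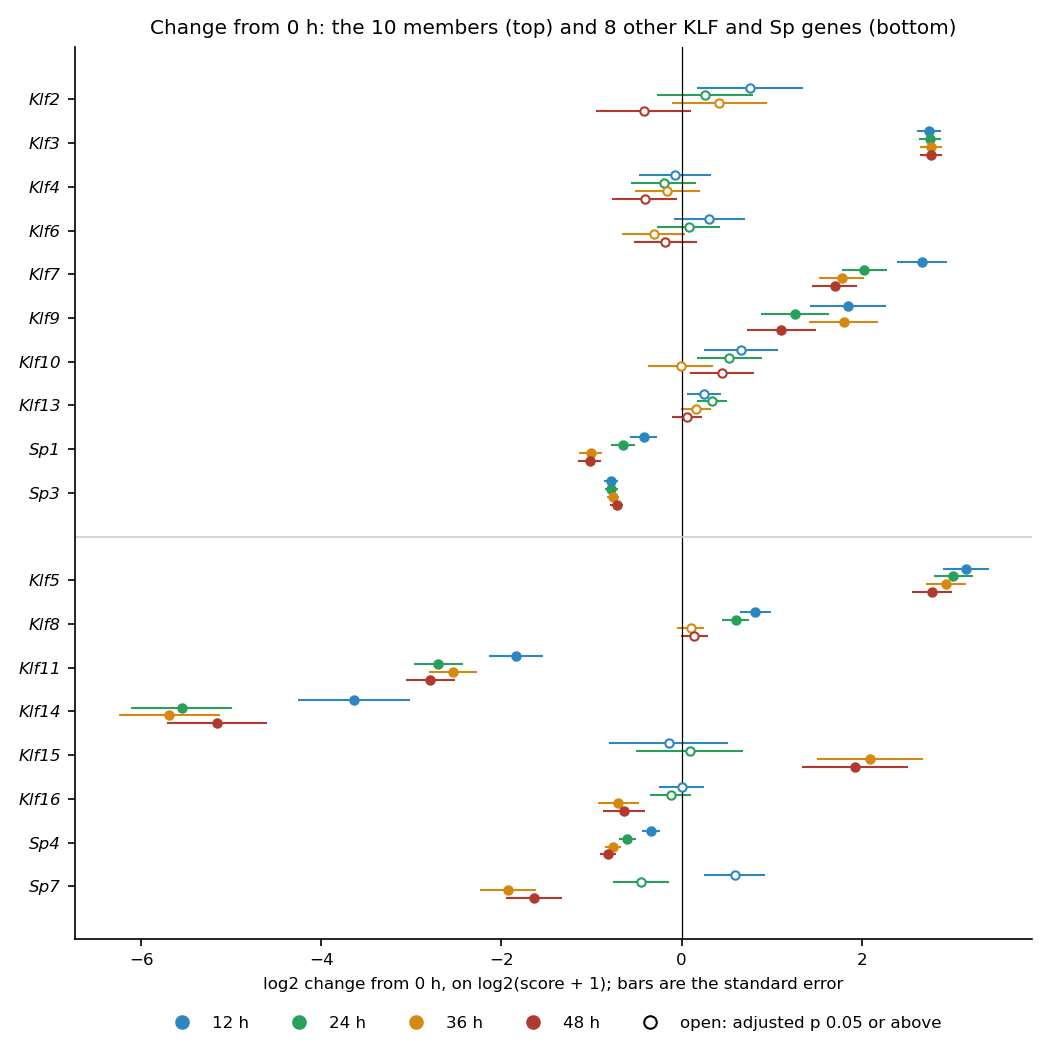
Log2 change from 0 h at each culture time for the 10 genes (top) and 8 other KLF and Sp genes (bottom), with the standard error as bars; open points have an adjusted p of 0.05 or above. Klf3 stays between 2.75 and 2.77 at all 4 times, Sp1 moves from -0.42 to -1.02, and the points of Klf2, Klf4, Klf6, Klf10 and Klf13 are all open.

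Klf2, Klf4, Klf6 and Klf10, the members known as rapid response genes, showed their widest spread among the freshly isolated libraries. Klf2, which maintains endothelial and T cell quiescence, scored 102, 491 and 805 at 0 h, and 642 and 529 at 12 h. It scored 397, 442 and 395 at 24 h, 446, 431 and 504 at 36 h and finally 195, 288 and 300 at 48 h. The range at 0 h, 7.89-fold from replicate 1 to replicate 3, took in all 11 cultured libraries. No change of Klf2 from 0 h was called; at 12 h it was 0.76 ± 0.59 (adjusted p = 0.287; 2 SE on either side run from -0.41 to 1.94) and at 48 h -0.42 ± 0.53 (adjusted p = 0.488; from -1.47 to 0.63).

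Klf4, a pluripotency and epithelial barrier factor, scored 1387, 3546 and 5667 at 0 h, and 3284 and 2552 at 12 h. It scored 2472, 2607 and 2861 at 24 h, 2461, 2500 and 3261 at 36 h and finally 2002, 2222 and 2673 at 48 h. The cultured libraries spanned 1.64-fold, inside the 4.09-fold range of the 0 h libraries. The change was -0.07 ± 0.40 at 12 h (adjusted p = 0.901) and -0.41 ± 0.36 at 48 h (adjusted p = 0.326; 2 SE on either side run from -1.13 to 0.31). The row is ENSMUST00000132746, on chromosome 4 (55530712 to 55532453, minus strand). The annotation gives it 2 exons and 859 bases, so which Klf4 transcripts the score covers is not given.

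Klf6, an activator induced by tissue injury, scored 4166, 10055 and 17316 at 0 h, and 10686 and 11567 at 12 h. It scored 8707, 10055 and 9774 at 24 h, 6777, 6910 and 8066 at 36 h and finally 7568, 7191 and 9163 at 48 h. Here too the libraries of 0 h enclosed those of culture. The change was 0.31 ± 0.39 at 12 h (adjusted p = 0.531) and -0.18 ± 0.35 at 48 h (adjusted p = 0.661; 2 SE on either side run from -0.89 to 0.53).

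Klf10, known as TGF-beta inducible early gene, scored 694, 1487 and 2688 at 0 h, and 2222 and 2213 at 12 h. It scored 1640, 1869 and 2725 at 24 h, 1245, 1282 and 1692 at 36 h and finally 1604, 1988 and 2213 at 48 h. The change was 0.66 ± 0.41 at 12 h (adjusted p = 0.183) and 0.45 ± 0.36 at 48 h (adjusted p = 0.284; 2 SE on either side run from -0.28 to 1.17). Klf13, a repressor of the same branch, varied less, between 1423 and 2468 at 0 h and between 1824 and 2620 in culture, and its changes from 0 h lay between 0.06 and 0.34, with the lowest adjusted p, 0.102, at 24 h.

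The order of the 0 h libraries was shared by most of the family and by the immediate early genes, the first genes that cells transcribe after a stimulus. Replicate 1 was lowest and replicate 3 highest, with replicate 2 between them, in 8 of the 10 genes (not in Klf3 and Sp3) and in 23 of 23 immediate early genes with a row, against 19.4% of all transcripts tested. Other lists held this order in part, with 10 of 16 genes of the early TGF-beta response, 5 of 8 other KLF and Sp genes, 4 of 7 genes of the cascade to MEF2 and 6 of 11 dental mesenchyme markers. It held in 4 of 9 glucocorticoid response genes, 6 of 20 textbook targets of KLF and Sp factors and 2 of 17 of their cofactors. Of the other markers, 2 of 10 endothelial, 2 of 9 red cell, 0 of 5 macrophage and 0 of 10 epithelial genes held it. Replicate 3 exceeded replicate 1 by more than 2-fold in 5 of the 10 genes, which were Klf2 (7.89-fold), Klf4 (4.09), Klf6 (4.16), Klf9 (3.72) and Klf10 (3.87), and in 17 of 23 immediate early genes, against 3.34% of all transcripts. Fos, a component of AP-1, scored 16498, 40642 and 127101 in replicates 1, 2 and 3, and Egr1, a zinc finger factor, 2540, 3904 and 8276. The score of 127101 is the largest that any library holds. The part of dissociation, of the epithelial signal in replicate 1 and of other differences between these libraries in that order was not tested.

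**Figure D4:**
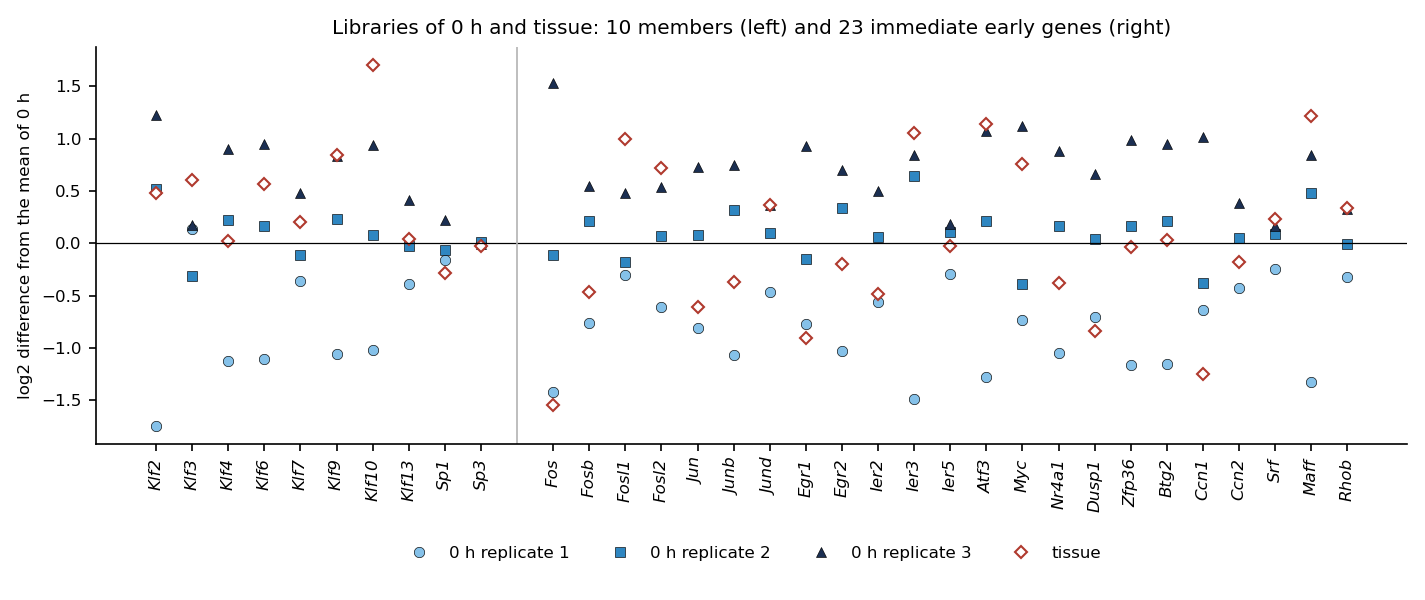
Log2 difference of each 0 h library, and of the tissue library, from the mean of the 0 h libraries, for the 10 genes (left of the line) and 23 immediate early genes (right of the line). Replicate 1 lies lowest and replicate 3 highest of the 0 h libraries for 8 of the 10 genes and all 23 immediate early genes, and the tissue value of Klf10 lies above all 3 libraries of 0 h.

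Leaving out 1 library of 0 h turned the direction of several changes and let some pass the test. Without 0 h replicate 1, Klf4 was called lower at all 4 culture times, from -0.63 at 12 h (adjusted p = 0.0286) to -0.97 at 48 h (adjusted p = 0.0010). Klf6 was then called lower at 24 h (-0.47, adjusted p = 0.0455), 36 h (-0.87, adjusted p = 0.00163) and 48 h (-0.73, adjusted p = 0.00466), and Klf2 at 24 h (-0.61, adjusted p = 0.0270) and 48 h (-1.29, adjusted p = 2.3e-04). Without 0 h replicate 3 the calls went the other way. Klf10 was then called higher at 12 h (1.13, adjusted p = 0.0100), 24 h (1.0, adjusted p = 0.0100) and 48 h (0.92, adjusted p = 0.0146). Klf13 was called higher at 12 h (0.45, adjusted p = 0.0341), 24 h (0.54, adjusted p = 0.00745) and 36 h (0.36, adjusted p = 0.0495), and Klf2 (1.37, adjusted p = 0.0353) and Klf6 (0.78, adjusted p = 0.0389) at 12 h. Leaving out 0 h replicate 2 gave no call of Klf2, Klf4, Klf6, Klf10 or Klf13. Leaving out a library of 0 h thus turned the direction of Klf2, Klf4 and Klf6 at all 4 culture times, and that of Klf10 and Klf13 at 36 and 48 h. At 12 and 24 h Klf10 (0.02 to 1.13) and Klf13 (0.05 to 0.54) stayed above 0 h whichever of these libraries was left out. The calls of Klf3, Klf7 and Sp3 did not change when any 0 h library was left out.

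**Figure D5:**
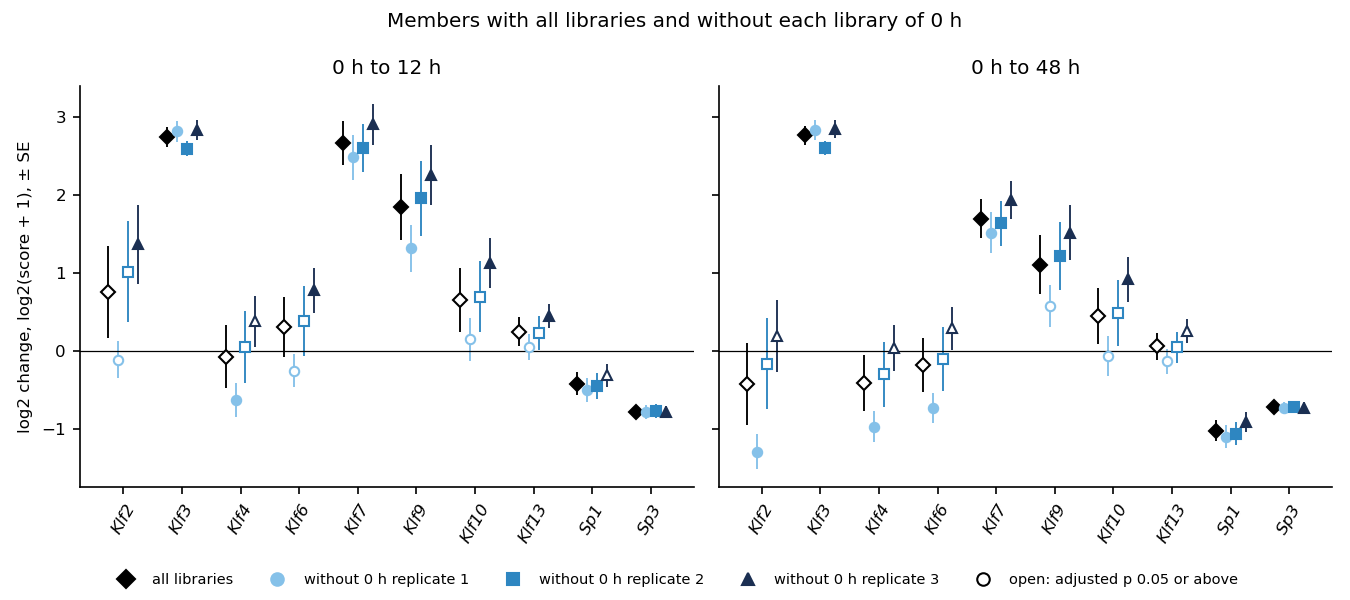
Log2 change from 0 h to 12 h (left) and from 0 h to 48 h (right) of the 10 genes with all libraries (black) and without each library of 0 h (blue), with the standard error as bars; open points have an adjusted p of 0.05 or above. Klf2, Klf4 and Klf6 move lowest without replicate 1, to -1.29, -0.97 and -0.73 at 48 h, while Klf3 and Sp3 hardly move.

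Between neighbouring culture times none of the 10 genes passed the test by limma. From 12 h to 24 h, 0 of 10 were called in either direction, beside 4.59% of all transcripts called higher and 3.67% lower, and 1 gene, Klf7, had an unadjusted p below 0.05 (-0.64 ± 0.28, adjusted p = 0.172; called without 12 h replicate 2, at -1.16 and adjusted p = 0.0235). From 24 h to 36 h, 0 of 10 were called, beside 10% higher and 9.64% lower, and 1 gene, Sp1, had an unadjusted p below 0.05 (-0.35 ± 0.13, adjusted p = 0.0804; 0.0489 without 12 h replicate 1 and 0.0490 without 12 h replicate 2). From 36 h to 48 h, 0 of 10 were called and 0 had an unadjusted p below 0.05, beside 0% higher and 0.0248% lower over all transcripts, of which 773 and 844 had an unadjusted p below 0.05. From 12 h to 48 h, 0 genes were called higher and 2 lower, Klf7 and Sp1, beside 21.2% and 21%. Klf2 fell from between 529 and 642 at 12 h to between 195 and 300 at 48 h without overlap, and the difference of -1.18 ± 0.59 did not pass the test (adjusted p = 0.123); it did without 0 h replicate 1 (-1.18, adjusted p = 0.00132), which changes only the estimate of the spread.

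For Klf3, Klf7 and Sp3, the tissue, with 1 library, lay nearer to the freshly isolated cells than to any cultured library. Klf3 scored 217 in the tissue, above the 0 h range of 115 to 161 and below the cultured range of 909 to 1038. Klf7 scored 232, inside the 0 h range of 157 to 281 and below the lowest cultured score of 550. Sp3 scored 5550, just below its 0 h range and above the highest cultured score of 3643. Sp1 scored 3068, below its 0 h range and below the 3267 of 12 h replicate 1. Klf10 scored 4573 in the tissue, above every library of 0 h and of culture. Klf2 (480), Klf4 (3077), Klf6 (13266) and Klf13 (1910) lay inside their 0 h ranges, and Klf9 scored 1409 against a highest 0 h score of 1401. In all, 5 of the 10 genes lay inside the 0 h range, 3 above and 2 below, beside 38.3%, 29.7% and 32.0% of all transcripts. With no replicate of the tissue, no test was made.

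The other KLF and Sp genes in the table also moved in both directions, with 2 called higher and 3 lower of 8 at 12 h, and 2 higher and 5 lower at 48 h. For this and each list of genes that follows, the shares of all transcripts called higher and lower were 29.9% and 28.3% at 12 h (median log2 change 0.02), against 37.1% and 34.0% at 48 h (median 0.03). Klf5, a factor of proliferating epithelium and mitogen-treated mesenchymal cells, rose from 25.3 ± 6.66 (SD, n = 3) at 0 h to 234 ± 65.8 (n = 2) at 12 h (log2 change 3.16 ± 0.25, adjusted p = 4.3e-07) and remained at 177 ± 24.7 (n = 3) at 48 h. Klf8, which like Klf3 recruits CtBP, was higher at 12 h (0.82 ± 0.17, adjusted p = 0.00104) and at 24 h (0.60 ± 0.15, adjusted p = 0.00340) and then fell from 24 h to 36 h (-0.50 ± 0.15, adjusted p = 0.0347), a call that was lost without any 1 of the 24 h or 36 h libraries (adjusted p = 0.0577 to 0.104). As for Sp1, the row of Klf8 is a short transcript (ENSMUST00000143880, 3 exons and 247 bases), so which Klf8 transcripts the score covers is not given. Klf11, the close relative of Klf10, went the other way from Klf5: it scored 1142, 2269 and 2608 at 0 h, 527 and 528 at 12 h, and between 218 and 348 at 48 h (-2.79 ± 0.27, adjusted p = 1.0e-06). Klf14 was between 70 and 143 at 0 h, 186 in the tissue, and between 0 and 7 in culture, with falls called at all 4 times.

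The bone factor Sp7 (osterix), needed for osteoblast differentiation, was lower at 36 and 48 h. It scored 901, 541 and 550 at 0 h, and 1053 and 894 at 12 h. It scored 332, 392 and 805 at 24 h, 173, 164 and 170 at 36 h and finally 172, 175 and 293 at 48 h. The libraries of 24 h differed widely, and all lay below those of 12 h (-1.04 ± 0.34, adjusted p = 0.0837). The change from 0 h to 24 h was -0.45 ± 0.31 (adjusted p = 0.210). Without 24 h replicate 3, the highest at that time, Sp7 was called lower at 24 h both from 0 h (-0.84, adjusted p = 0.0124) and from 12 h (-1.42, adjusted p = 0.0118). The fall from 24 h to 36 h was -1.48 ± 0.31 (adjusted p = 0.00709) and the change from 0 h to 48 h was -1.64 ± 0.31 (adjusted p = 3.6e-04). Sp4, best known in neurons, fell as Sp1 did, from 769 ± 67.1 (n = 3) at 0 h to 434 ± 12.9 (n = 3) at 48 h (-0.82 ± 0.09, adjusted p = 2.0e-06). Its smaller fall at 12 h (-0.34 ± 0.10, adjusted p = 0.00755) was no longer called without 12 h replicate 2 (-0.28, adjusted p = 0.0675) or in a fit of only the 0 h and 12 h libraries (adjusted p = 0.0725). Klf16 was lower at 36 h (-0.70 ± 0.23, adjusted p = 0.0150) and 48 h (-0.64 ± 0.23, adjusted p = 0.0226), calls that were lost without 0 h replicate 2 (-0.59, adjusted p = 0.0615, and -0.53, adjusted p = 0.0856) or 0 h replicate 3 (-0.46, adjusted p = 0.0750, and -0.40, adjusted p = 0.113), and at 48 h also without 48 h replicate 1 (-0.53, adjusted p = 0.0834). At 24 h it was not called with all libraries (-0.12, adjusted p = 0.658), and was called lower without 0 h replicate 1 (-0.47, adjusted p = 0.00891). Klf15, a metabolic regulator that glucocorticoids induce, scored between 9 and 14 at 0 h and 49, 57 and 55 at 36 h (2.09 ± 0.59, adjusted p = 0.00651), with 107, 35 and 29 at 48 h (1.93 ± 0.59, adjusted p = 0.0101, and 1.36, adjusted p = 0.0546, without 48 h replicate 1).

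Cofactors and turnover factors of the family moved in both directions. Of 17 genes, 2 were called higher and 5 lower at 12 h. At 48 h 4 were higher and 8 lower, with a median log2 change of -0.45 at 48 h against 0.03 over all transcripts. Fhl3, a partner of Klf3, rose from 258 ± 85.3 (n = 3) at 0 h to 1266 ± 301 (n = 2) at 12 h (2.32 ± 0.21, adjusted p = 1.3e-06). Ctbp2, a corepressor that Klf3 recruits, fell from 2497 ± 197 to 1596 ± 6.36 (-0.64 ± 0.11, adjusted p = 2.8e-04). Sin3a, the corepressor of Klf9, Klf10 and Klf13, fell to 699 ± 30.9 at 48 h (-1.44 ± 0.16, adjusted p = 2.9e-06), while Sap30, a subunit of the same complex, rose (0.86 ± 0.18, adjusted p = 8.4e-04). Btrc, a ubiquitin ligase subunit, was lower at 12 h (-0.83 ± 0.11, adjusted p = 2.5e-05), and the acetyltransferase Crebbp was lower at 48 h (-0.83 ± 0.29, adjusted p = 0.0215).

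Of the kinase cascade from MEKK through MEK5 and ERK5 to MEF2, which drives Klf2 and Klf4 in endothelium, 1 of 7 genes was called higher and 1 lower at 12 h, and 2 higher and 2 lower at 48 h. For a list of 7 genes, these counts lie near the shares over all transcripts. Mef2c fell from 2068 ± 158 (n = 3) at 0 h to 645 ± 148 (n = 3) at 48 h (-1.70 ± 0.15, adjusted p = 6.0e-07) and Mapk7, which encodes ERK5, was lower at 48 h (-0.54 ± 0.08, adjusted p = 6.0e-05). Mef2a (0.45 ± 0.09, adjusted p = 4.3e-04) and the kinase Map3k2 (0.78 ± 0.18, adjusted p = 0.00180) were higher at 48 h.

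Among the immediate early genes, 7 of 23 were called higher and 12 lower at 12 h, and 4 higher and 13 lower at 48 h, with a median of -1.27 at 48 h against 0.03 over all transcripts. The share called lower was above that of all transcripts at both times, and the share called higher at 48 h was below it. Fos fell from 61414 ± 58154 (n = 3) at 0 h to 1945 ± 116 (n = 2) at 12 h (-4.50 ± 0.58, adjusted p = 2.9e-05), and Fosb (-4.0, adjusted p = 9.8e-06), Atf3 (-2.33, adjusted p = 0.00403) and Egr1 (-1.49, adjusted p = 0.0118) fell with it. Fosl1, an AP-1 subunit of proliferating cells, rose from 13 ± 4.36 to 558 ± 202 (5.32 ± 0.34, adjusted p = 8.7e-08), and Ccn2 (formerly Ctgf), a matrix-associated growth factor, from 1662 ± 453 to 40642 in both libraries of 12 h (4.65 ± 0.31, adjusted p = 1.2e-07). Klf2, Klf4, Klf6 and Klf10, which shared the order of the 0 h libraries with this list, did not pass the test at 12 h with all libraries.

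Of 16 genes of the early TGF-beta response, the signal after which Klf10 was named, 6 were called higher and 4 lower at 12 h, and 5 higher and 4 lower at 48 h, with a median of -0.03 at 48 h, counts that lie near the shares over all transcripts. Ltbp2, a matrix protein of the latent TGF-beta binding family, rose from 105 ± 55.4 to 4831 ± 301 at 12 h (5.64 ± 0.30, adjusted p = 1.7e-08). The ligands Tgfb1 (2.04 ± 0.45, adjusted p = 0.00181) and Tgfb3 (1.27 ± 0.24, adjusted p = 6.3e-04) were higher at 12 h, whereas the receptor Tgfbr1 (-0.42 ± 0.08, adjusted p = 9.5e-04) and the repressor Bhlhe40 (-1.63 ± 0.49, adjusted p = 0.0123) were lower. At 48 h Tgfb3 (1.72 ± 0.22) and Tgfbr1 (-0.99 ± 0.08) were still called, and Tgfb1 (0.86 ± 0.40, adjusted p = 0.0728) and Bhlhe40 (-0.13 ± 0.44, adjusted p = 0.801) were not.

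Of 9 glucocorticoid response genes with a row, a group to which Klf9 also belongs, 4 were called higher and 1 lower at 12 h, and 6 higher and 2 lower at 48 h, with a median of 0.80 at 48 h against 0.03 over all transcripts. The metallothioneins Mt2 (5.95 ± 0.40, adjusted p = 3.8e-08) and Mt1 (4.64 ± 0.37, adjusted p = 2.0e-07) were higher at 48 h, as were the EGFR inhibitor Errfi1 (1.65 ± 0.32, adjusted p = 4.5e-04) and the kinase Sgk1 (0.80 ± 0.30, adjusted p = 0.0314). Ddit4, an inhibitor of mTORC1, was lower at 12 h (-1.80 ± 0.32, adjusted p = 3.8e-04) and higher at 48 h (1.07 ± 0.29, adjusted p = 0.00472). Fkbp5, a defining target of the glucocorticoid receptor, fell at 48 h (-1.39 ± 0.22, adjusted p = 8.6e-05). Metallothioneins also respond to metals, and the list is not specific to the hormone.

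Of 20 textbook targets of KLF and Sp factors, 9 were called higher and 5 lower at 12 h, and 10 higher and 6 lower at 48 h, with a median of 0.40 at 48 h against 0.03 over all transcripts. The share called lower was near that of all transcripts, and the share called higher was above it. Cdkn1a, the cell cycle inhibitor p21, rose from 24.0 ± 13 (n = 3) at 0 h to 386 ± 138 (n = 2) at 12 h and 2393 ± 58.4 (n = 3) at 48 h (6.70 ± 0.27, adjusted p = 5.2e-10), and Cdkn2b from 4.33 ± 3.51 to 238 ± 50.1 at 48 h (5.72 ± 0.43, adjusted p = 1.2e-07). Mdm2, the inhibitor of p53, was level at 12 h (0.12 ± 0.17, adjusted p = 0.554) and higher at 48 h (3.41 ± 0.15, adjusted p = 8.8e-10). The protease Plau (3.88 ± 0.10, adjusted p = 8.9e-12) and the lectin Lgals3 (6.05 ± 0.19, adjusted p = 6.9e-11) were higher at 48 h. Nos3, the endothelial nitric oxide synthase that Klf2 activates, scored 284 ± 73.8 (n = 3) at 0 h and 401 in the tissue, and at 48 h its score was 1.67 ± 0.577 (n = 3). These genes have many other regulators, and the part of the KLF and Sp factors in their changes was not tested.

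Markers of other cell types fell with culture over the same interval. Of 10 endothelial markers, 9 were called lower at both 12 h and 48 h and 1, Flt1, higher, with a median log2 change of -4.84 at 48 h; their summed score was between 10971 and 12972 at 0 h, 15668 in the tissue and, Flt1 included, between 2029 and 3592 at 48 h, where Cldn5 was listed at 0 in all 3 libraries. Of 9 red cell markers all were called lower, from sums between 98239 and 151173 at 0 h to between 52 and 168 at 48 h, with Hbb-bh1 and Slc4a1 listed at 0 in all 3 libraries. Of 5 macrophage markers 4 were called lower at 12 h and 5 at 48 h, from sums between 1291 and 2025 to between 360 and 422. Klf2 and Klf4 are known in endothelium and Klf3 in red cell precursors, and the score of Klf3 rose while the red cell markers fell. Epithelial markers summed to between 2101 and 17589 at 0 h and to between 400 and 1342 at 48 h, with 6 of 10 called lower. The part of these cells in the changes of the 10 genes was not tested. Of 11 dental mesenchyme markers none was listed at 0 in any library; 7 were called lower and 2 higher at 12 h, and 7 lower and 0 higher by limma at 48 h. Their sum was between 82977 and 98394 at 0 h, 63866 and 77642 at 12 h and between 48102 and 57241 at 48 h, and at 24 h replicate 3 (95709) lay inside the 0 h range while replicates 1 and 2 (52205 and 58941) lay below it.

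Across the 14 mDMC libraries the genes fell into a few shared profiles, given here as Pearson correlations of log2 scores and as a description, since libraries of 1 time point share their culture time. Klf3 and Sp3 ran opposite to each other (r = -0.98), as did Klf7 and Sp3 (-0.90), and Klf3 and Klf7 ran together (0.90). Among Klf2, Klf4, Klf6 and Klf10, r was 0.88 between Klf2 and Klf4 and between Klf4 and Klf6, 0.82 between Klf2 and Klf6, 0.85 between Klf6 and Klf10, 0.66 between Klf2 and Klf10 and 0.68 between Klf4 and Klf10. Klf13 correlated with these 4 genes to a like degree, at 0.70 with Klf4 and Klf6 and 0.73 with Klf2 and Klf10. All these genes shared the order of the 0 h libraries. Klf2, Klf4, Klf6 and Klf10 spanned 3.87-fold to 7.89-fold at 0 h, against 1.64-fold to 3.29-fold over all cultured libraries. The part of the 0 h libraries in their correlations was not tested. Over the whole table the pair of genes most like Klf3 was Crim1 and Itgb1 (0.99 each), most like Klf7 Rel and Myo1d (0.98), and most like Klf9 Lrch1 (0.96) and Ptger2 (0.94). Those most like Sp1 were Smarcd1 and Rybp (0.99), and most like Sp3 Map2k6 and the unmatched transcript ENSMUST00000142757 (0.99). Klf2 was most like Siah2 and Trib1 (0.88), Klf4 like Siah2 (0.91) and Klf2 (0.88), Klf6 like Trib1 (0.91) and Gm16344 (0.89), Klf10 like Ier5l (0.92) and Chd1 (0.89), and Klf13 like Smndc1 (0.88) and Chd1 (0.87).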

How the data were processed

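RNA-seq was performed on 14 mDMC libraries and 1 tissue library, grouped by the time in the sample labels. The authors removed adaptors, placed reads on Ensembl transcripts of the mouse (build mm10) by bowtie, and quantified them by RSEM (version 1.1.21 in the submitters' processing notes; the paper's methods state another version). The deposited values are scores, whole numbers on a normalized scale with totals between 21357605 and 21365980 per library. The step that gave all libraries the same median, the same largest score and the same score at most ranks is not given in the sources used here. Scores are not counts, so depth is unknown and no counting interval was computed. The library kit is not stated to mark strand, so reads from a gene and from an antisense transcript cannot be told apart. Related zinc finger sequences can share reads, and how these were divided was not tested. Scores were not compared between genes, because the length behind each score is not given.

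Transcript identifiers were matched to genes in an annotation of GRCm38, with 11973 of 12089 matched. Scores were analysed as log2(score + 1) with limma 3.58.1 under R 4.3.3. Each time point had its own mean, the variance prior followed intensity, and tests were two-sided. A transcript was tested if 2 or more libraries held it at 1 ppm of their total or above, which left 12079. The tissue was left out of the fit. A stricter fold change of 2 at an unadjusted p of 0.05 was an alternative. The paper also used a fold change of 2 and a p-value of 0.05, and does not say whether its p-value was adjusted. The fit was checked on simulated data. Named genes were the 10 genes, every other KLF and Sp gene with a row, up to 6 genes per list by size of change, and the 2 most correlated genes; a gene that this rule names from 1 list is counted in that list but not reported here by name. The 10 genes, the lists, the tests and the alternatives were chosen with earlier results of these data known, and counting the close pair at 36 h as 1 library was added after seeing the scores. Alternatives were pseudocounts of 0.1 and 10, other filters, trimmed-mean scaling, a fit of only 2 time points, a replicate block (same-numbered libraries deviated together between 24 h and 36 h and between 24 h and 48 h, where all 3 pairs correlated above 0.1, a hint from the data since no label ties them), no trend and each library left out. Promoters came from a RefSeq table of GRCm38.p6 (9 of 10 genes matched; for Sp3, the window at the start of the listed transcript). Summaries and plots used Python 3.11.15 with numpy 2.4.6, pandas 2.3.3 and matplotlib 3.10.9.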

Additional observations from a re-analysis of the deposited data

Results flagged for a closer look

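For 7 of the 18 KLF and Sp genes with a row, the change from 0 h differed between 48 h and 12 h by limma. The test of that difference is the comparison of 12 h with 48 h, which called 21.2% of all transcripts higher and 21% lower. The count of 7 of 18 thus lies near the share called in either direction over all transcripts. The log2 change at 48 h minus that at 12 h was -0.97 for Klf7 and -0.60 for Sp1 among the 10 genes, and -0.68 for Klf8, -0.95 for Klf11, 2.07 for Klf15, -0.48 for Sp4 and -2.23 for Sp7 among the others. Klf7 and Klf8 rose by 12 h and lay lower at 48 h, whereas Sp1, Sp4 and Klf11 were lower at 12 h and lower still at 48 h. The fall of Sp4 at 12 h (-0.34, adjusted p = 0.00755) was no longer called without 12 h replicate 2 (-0.28, adjusted p = 0.0675), nor was that of Sp1 (-0.19, adjusted p = 0.348). With all libraries, Sp7 and Klf15 passed the test from 0 h at 36 and 48 h and not at 12 or 24 h; without 24 h replicate 3 Sp7 was also called lower at 24 h (-0.84, adjusted p = 0.0124). Without 12 h replicate 1, one of only 2 libraries at that time, the differences of Klf7 (-0.45, adjusted p = 0.232), Sp1 (-0.37, adjusted p = 0.106), Klf8 (-0.60, adjusted p = 0.0620), Klf11 (-0.95, adjusted p = 0.0962) and Klf15 (1.70, adjusted p = 0.160) were no longer called. Klf11 was also not called without 12 h replicate 2 (-0.95, adjusted p = 0.0787), 48 h replicate 2 (-0.79, adjusted p = 0.0737) or 48 h replicate 3 (-0.93, adjusted p = 0.0506), nor Klf15 without 48 h replicate 1 (1.5, adjusted p = 0.0834). Those of Sp4 and Sp7 were called in all 14 fits that left out 1 library. Of the genes not called with all libraries, Klf16 (-0.65, adjusted p = 0.0584) was called without 0 h replicate 1 (adjusted p = 0.00269) or 0 h replicate 3 (adjusted p = 0.0281), in the fit of only 2 time points (adjusted p = 0.0176) and with the replicate block (-0.76, adjusted p = 0.0144). Klf2 (-1.18), Klf6 (-0.49) and Klf9 (-0.74) were called in the fit of only 2 time points (adjusted p = 0.00974, 0.0346 and 0.0253), and Klf2 and Klf9 also without 0 h replicate 1 (adjusted p = 0.00132 and 0.0453). Klf14 (-1.51, adjusted p = 0.0667) was called without 36 h replicate 3 (adjusted p = 0.0425) and without the intensity trend (adjusted p = 0.0109). No group had more than 3 libraries, and no test for a single outlying library was made.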

How the results depend on the processing

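The calls of Klf3, Klf7 and Sp3 from 0 h held under every alternative run on the adjusted p-value. Over the 10 genes and 5 comparisons (each culture time with 0 h, and 12 h with 48 h), 1133 values kept their direction and side of the threshold, 28 changed sign, of which 2 gained a call (Klf2 and Klf6 at 24 h without 0 h replicate 1), and of the others 21 gained and 18 lost a call. The cause of these shifts was not tested. With a fit of only 2 time points, 1 of the 10 genes was called lower between 0 and 12 h, 2 between 24 and 36 h and 5 between 12 and 48 h, Klf9 lost its call at 48 h (adjusted p = 0.0521), and over all transcripts 119 were higher and 41 lower between 12 and 24 h and 8 higher and 25 lower between 36 and 48 h. With an unadjusted p below 0.05 and a fold change above 2, 0 of the 10 genes were called lower at 12 h and 24 h, 1 at 36 h and 1 at 48 h, and 0 between 12 and 48 h; the transcripts called higher and lower were 1474 and 1459 at 12 h, 1672 and 1710 at 24 h, 1880 and 1881 at 36 h, 1954 and 1920 at 48 h, 217 and 228 between 12 and 24 h, 291 and 213 between 24 and 36 h, 48 and 116 between 36 and 48 h, and 775 and 858 between 12 and 48 h. With the 36 h pair as 1 library, chosen after seeing the data, 622 transcripts were higher and 478 lower between 24 and 36 h and 0 lower between 36 and 48 h, and Klf10 was at 0.06 at 36 h. Klf16 was at -0.02 at 12 h with trimmed-mean scaling.

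Replicate numbers are shared between groups by label only. Deviations of same-numbered libraries correlated above 0.1 in 11 of 26 pairs; all 3 pairs did so between 24 and 36 h (0.13 to 0.16) and between 24 and 48 h (0.20 to 0.32), and not all did between any other times. With the replicate block, 1 transcript was higher and 6 lower between 36 and 48 h, Klf10 was called at 12 h (0.89, adjusted p = 0.0174), Klf4 was at 0.12 at 12 h and Klf3 at -0.01 between 12 and 48 h, and no other call of the 10 genes changed.

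With each library left out in turn, the number of the 10 genes called higher ranged from 3 to 7 at 12 h and from 2 to 5 at 24 h. The number called lower ranged from 1 to 3 at 12 h, 2 to 5 at 24 h, 2 to 4 at 36 h, 2 to 5 at 48 h, 0 to 1 between 12 and 24 h and between 24 and 36 h, and 0 to 4 between 12 and 48 h. Transcripts called higher from 0 h ranged from 3110 to 3662 at 12 h and 3822 to 4271 at 24 h. Transcripts called lower ranged from 2809 to 3495 at 12 h, 3498 to 3917 at 24 h, 3785 to 4166 at 36 h and 3879 to 4156 at 48 h. Over all transcripts, those higher and lower ranged from 135 to 670 and 49 to 640 between 12 and 24 h (fewest without 12 h replicate 1), 625 to 1378 and 453 to 1381 between 24 and 36 h (fewest without 24 h replicate 3), 0 to 97 and 0 to 102 between 36 and 48 h (most without 48 h replicate 1), and 1568 to 2726 and 1642 to 2751 between 12 and 48 h (fewest without 12 h replicate 1). Log2 changes from 0 h that changed sign ranged as follows. Klf2 ranged from -0.11 to 1.37 at 12 h, -0.61 to 0.87 at 24 h, -0.45 to 1.03 at 36 h and -1.29 to 0.19 at 48 h. Klf4 ranged from -0.63 to 0.38 at 12 h, -0.76 to 0.25 at 24 h, -0.72 to 0.29 at 36 h and -0.97 to 0.04 at 48 h. Klf6 ranged from -0.25 to 0.78 at 12 h, -0.47 to 0.55 at 24 h, -0.87 to 0.16 at 36 h and -0.73 to 0.29 at 48 h. Klf10 ranged from -0.52 to 0.45 at 36 h and from -0.06 to 0.92 at 48 h. Klf13 ranged from -0.01 to 0.50 at 12 h, -0.04 to 0.36 at 36 h, -0.13 to 0.26 at 48 h and -0.44 to 0.06 between 12 and 48 h. Klf15 ranged from -0.51 to 0.23 at 12 h and -0.61 to 0.57 at 24 h, Klf16 from -0.35 to 0.24 at 12 h and -0.47 to 0.12 at 24 h, and Klf3 from -0.07 to 0.11 between 12 h and 48 h. Because the scores share one distribution, a shift in total RNA per cell is not visible, and the precision at low scores, such as those of Klf14 and Klf15, cannot be given without depth.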
